A study of Mus musculus with 12 samples.

Results

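Follicle-stimulating hormone (FSH) acts on the granulosa cells of the ovarian follicle, of which the cumulus cells around the oocyte are one kind, through a receptor that couples to Gs and adenylyl cyclase. The cyclic AMP so formed frees the catalytic subunits of protein kinase A (PKA), which phosphorylate CREB and other targets, and the same signal switches on genes that damp it: phosphodiesterases that degrade cyclic AMP, RGS proteins that act on G proteins, and a repressor form of CREM. The data described here are the RNA levels of 10 genes of this circuit, out of 13318 mouse genes with a value: the gonadotropin receptor genes Fshr and Lhcgr, the phosphodiesterase genes Pde4b and Pde4d, Rgs2, Sgk1, Crem, the PKA regulatory subunit gene Prkar2b, the anchoring protein gene Akap12 and Nr4a1. They were chosen by name for their place in the pathway, with earlier results of these data known, and each was found in the tables under its Ensembl gene.

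RNA was sequenced from cumulus cells of Kunming mice in 3 libraries given FSH and fetal bovine serum (FBS) for 18 hours and in 3 libraries labelled as untreated. FSH and FBS were given together, so their effects cannot be told apart, and the labels give no culture time for the untreated cells. The series concerns cumulus expansion and apoptosis, and its design text sets intact cumulus-oocyte complexes beside complexes whose oocyte was removed. The labels do not say which of these each library came from. Levels are in FPKM, fragments per kilobase of transcript scaled to the reads mapped. First-exon and last-exon FPKM were each summed per gene and the higher sum was used, and a gene absent from a library's table is called unlisted there and has no value.

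Libraries 1 and 2 of each group were nearly alike. Of 9022 genes listed in all 6 libraries at a mean of at least 1 FPKM, 2.82% differed more than 2-fold between the first pair after FSH and FBS and 4.54% between the first untreated pair, against 16.0% to 22.9% for the other pairs within a group. Each such pair therefore entered as its mean, which leaves n = 2 in each group. The labels do not tell separate cultures or animals from repeat libraries of 1 pool, and the p-values cover the spread between these samples alone, which may be technical. The assembled gene numbers of untreated library 2 matched those of FSH and FBS library 1 for 0.0% of shared genes, against 98.9% to 99.2% for the other libraries, so its table came from another numbering. The depth behind the FPKM values is unknown. Gene values summed to 390966 FPKM in FSH and FBS library 3, against 264904 to 274530 FPKM in the other libraries. The values printed per library are not rescaled for this, so whether libraries overlap can depend on it.

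Of 12 granulosa and cumulus markers, 11 were listed in at least 1 library, and Foxl2, a defining granulosa factor, was unlisted in all 6. The list summed to 1024.69, 1043.66 and 692.11 FPKM after FSH and FBS, against 1466.83, 1520.79 and 1333.25 FPKM in untreated libraries, and none of its 8 tested genes passed. Gja1, the gap junction gene that led most of these sums, stood at 446.47 and 447.75 FPKM in libraries 1 and 2 of FSH and FBS and at 968.17, 994.68 and 708.98 FPKM in untreated cells. Inha, an inhibin subunit gene, stood at 276.1, 282.1 and 279.0 FPKM after FSH and FBS, against 349.7, 360.0 and 502.5 FPKM in untreated cells. It led the sum of FSH and FBS library 3. Nr5a2 ran the other way, at 61.4, 61.0 and 47.6 FPKM after FSH and FBS against 30.2, 24.3 and 22.1 FPKM untreated. Inhba stood at 121.5, 125.8 and 19.7 FPKM after FSH and FBS against 32.2, 23.9 and 8.09 FPKM untreated. Cyp19a1 was listed only in libraries 1 and 2 of FSH and FBS. The sums thus do not give the direction of every marker. The 15 oocyte markers summed to 0.26, 0.16 and 18.4 FPKM after FSH and FBS, with 1, 1 and 6 of them listed, and to 20.4, 22.4 and 26.4 FPKM in untreated libraries, with 10, 9 and 8 listed. Zp3, of the egg coat, was unlisted in all 3 FSH and FBS libraries and at 1.38 to 1.76 FPKM in untreated ones. By the oocyte marker sum, FSH and FBS library 3 thus lay near the untreated libraries and far from libraries 1 and 2 of its own group. Zp3 did not follow this, and Gdf9 alone made up 8.77 of the 18.4 FPKM in that library. The 11 theca and stroma markers, led by Acta2, summed to 28.9 to 38.7 FPKM after FSH and FBS and to 65.9 to 88.3 FPKM in untreated libraries. Without Acta2 the sums overlapped, at 14.4 to 21.2 FPKM after FSH and FBS and 7.59 to 21.7 FPKM in untreated libraries. Cyp17a1, which defines theca cells, was listed at 0.032 FPKM in untreated library 1 and in no other library. Insl3, of the same list, stood at 1.79 and 2.07 FPKM in libraries 1 and 2 of FSH and FBS and was unlisted in library 3. In untreated cells Insl3 stood at 1.46, 0.944 and 0.105 FPKM. Leukocyte markers (Ptprc at most 0.005 FPKM) without Cd79a, whose ID carried signal lying 0.0% inside the RefSeq span of that gene, summed to 2.96 to 7.19 FPKM after FSH and FBS and to 9.11 to 12.6 FPKM in untreated libraries. Endothelial markers summed to 2.70 to 3.37 FPKM after FSH and FBS and to 0.02 to 0.98 FPKM in untreated libraries, and erythroid markers to at most 1.92 FPKM in any library. Whether cells of these kinds had a part in the results below was not tested, and in bulk RNA fewer cells of a type and less RNA per cell cannot be told apart.

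The promoters of the members that the results turn on are shown first, because cyclic AMP acts on many early genes through CREB sites near the start. RefSeq promoters of GRCm38.p6, 250 bases before to 50 after a start, were used for 8 of the 10 members, with 17 entries. No entry was used for Crem or Akap12. Their promoters, including any for the repressor form of CREM, were therefore not examined. The first exons in the deposited tables fit that build: 15.9% of 26769 first-exon starts were exactly a RefSeq start, against 0.007% when all were moved by 1000 bases. The Nr4a1 entry lies inside its main first exon, a group of overlapping listed first exons. The most upstream edge of that group is at position -2217 relative to the RefSeq start. Capitals mark TGACG, the CREB half-site, on either strand (read as CGTCA on the opposite one), and CACGTG, an E-box. The full palindrome TGACGTCA, which would also count as both half-site forms, was in none of the 17 entries and in 1.79% of 32851 promoters of this length. Nr4a1 had 4 half-sites, all on the opposite strand, 233, 213, 69 and 40 bases before the start, and 4 or more occurred in 0.231% of promoters. Rgs2 had 2 half-sites, 185 and 67 bases before the start, and at least 1 occurred in 20.8% of promoters. One half-site each was also in the most upstream of 4 Pde4b entries, 34 bases before the start, and in the entry at the first of the Sgk1 first exons, 236 bases before it. The Fshr and Prkar2b promoters each held 1 E-box, 61 and 80 bases before the start, and the Sgk1 promoter of the third first exon held 1 at 246 bases, against 7.15% of promoters with at least 1. These are letter matches and not measured binding.
Nr4a1, chr15:101266596-101266895, + strand: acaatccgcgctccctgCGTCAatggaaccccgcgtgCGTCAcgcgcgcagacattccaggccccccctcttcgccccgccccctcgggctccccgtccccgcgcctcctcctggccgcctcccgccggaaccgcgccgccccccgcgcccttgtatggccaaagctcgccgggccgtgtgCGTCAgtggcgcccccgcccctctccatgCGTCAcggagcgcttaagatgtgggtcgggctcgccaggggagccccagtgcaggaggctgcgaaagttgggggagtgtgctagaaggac
Rgs2, chr1:144004100-144004399, - strand: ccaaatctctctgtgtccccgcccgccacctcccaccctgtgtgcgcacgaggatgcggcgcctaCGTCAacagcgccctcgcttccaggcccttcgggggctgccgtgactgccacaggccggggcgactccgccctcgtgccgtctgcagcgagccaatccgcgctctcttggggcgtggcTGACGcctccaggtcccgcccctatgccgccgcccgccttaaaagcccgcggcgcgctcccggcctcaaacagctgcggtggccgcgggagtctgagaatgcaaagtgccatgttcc
Sgk1, start of the third first exon, chr10:21993640-21993939, + strand: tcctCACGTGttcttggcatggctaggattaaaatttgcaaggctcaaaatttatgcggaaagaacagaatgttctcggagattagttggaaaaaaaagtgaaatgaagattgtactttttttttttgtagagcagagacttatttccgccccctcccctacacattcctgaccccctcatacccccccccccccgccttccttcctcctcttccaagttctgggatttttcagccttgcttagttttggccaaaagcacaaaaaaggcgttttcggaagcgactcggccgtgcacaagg
Fshr, chr17:89200626-89200925, - strand: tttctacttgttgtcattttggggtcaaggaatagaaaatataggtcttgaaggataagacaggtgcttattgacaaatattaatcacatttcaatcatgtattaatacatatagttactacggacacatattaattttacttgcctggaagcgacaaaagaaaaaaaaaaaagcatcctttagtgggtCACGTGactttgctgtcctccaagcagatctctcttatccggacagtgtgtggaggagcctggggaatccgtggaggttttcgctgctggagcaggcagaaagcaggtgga
Prkar2b, chr12:32061228-32061527, - strand: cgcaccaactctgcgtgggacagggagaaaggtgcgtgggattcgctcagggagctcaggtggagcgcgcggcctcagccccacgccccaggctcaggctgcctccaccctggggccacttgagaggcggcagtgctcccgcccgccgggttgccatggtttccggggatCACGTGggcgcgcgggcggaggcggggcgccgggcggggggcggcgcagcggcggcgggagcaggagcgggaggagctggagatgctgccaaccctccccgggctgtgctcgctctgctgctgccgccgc

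Cells given FSH and FBS were then compared with untreated cells, to ask how the receptors and the feedback genes stood after 18 hours of exposure. Sgk1 lay several-fold higher after FSH and FBS, and Pde4d was listed at several FPKM in all 3 FSH and FBS libraries while it was below 0.5 FPKM or unlisted in untreated ones. Fshr, Prkar2b, Nr4a1 and Rgs2 had lower means after FSH and FBS. Crem did not separate the groups, and Lhcgr, Pde4b and Akap12 were near the lower end of the listed range wherever they were listed. Of the 10 members, 6 were listed in all libraries and could be tested with limma. None of these 6 passed at a Benjamini-Hochberg adjusted p of 0.05, against 2.37% of the 9022 genes tested, although 4 of the 6 had an unadjusted p under 0.05, as did 16.46% of all genes tested. With the replicate number as a block, 1 member passed as higher (Sgk1) and 3 as lower (Prkar2b, Nr4a1 and Fshr), where 16.0% of all genes passed, 11.5% higher and 4.51% lower. With all 6 libraries as separate samples 1 passed as higher (Sgk1) and 1 as lower (Prkar2b), where 14.7% of genes passed, 10.8% higher and 3.88% lower. Without FSH and FBS library 3, Sgk1 passed and no other member did, where 4.10% of genes passed, 2.70% higher and 1.40% lower, and without untreated library 3 no member passed, where 0.456% were higher and 0.358% lower. The 3 FSH and FBS libraries lay above all 3 untreated ones for Sgk1 and below them for Fshr, Rgs2 and Prkar2b, 4 of 6 members, while 29.4% of all tested genes lay above and 9.54% below, 38.9% in all. The median log2 fold change of all tested genes was 0.24, the value beside which the members' fold changes are read.

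**Figure D1:**
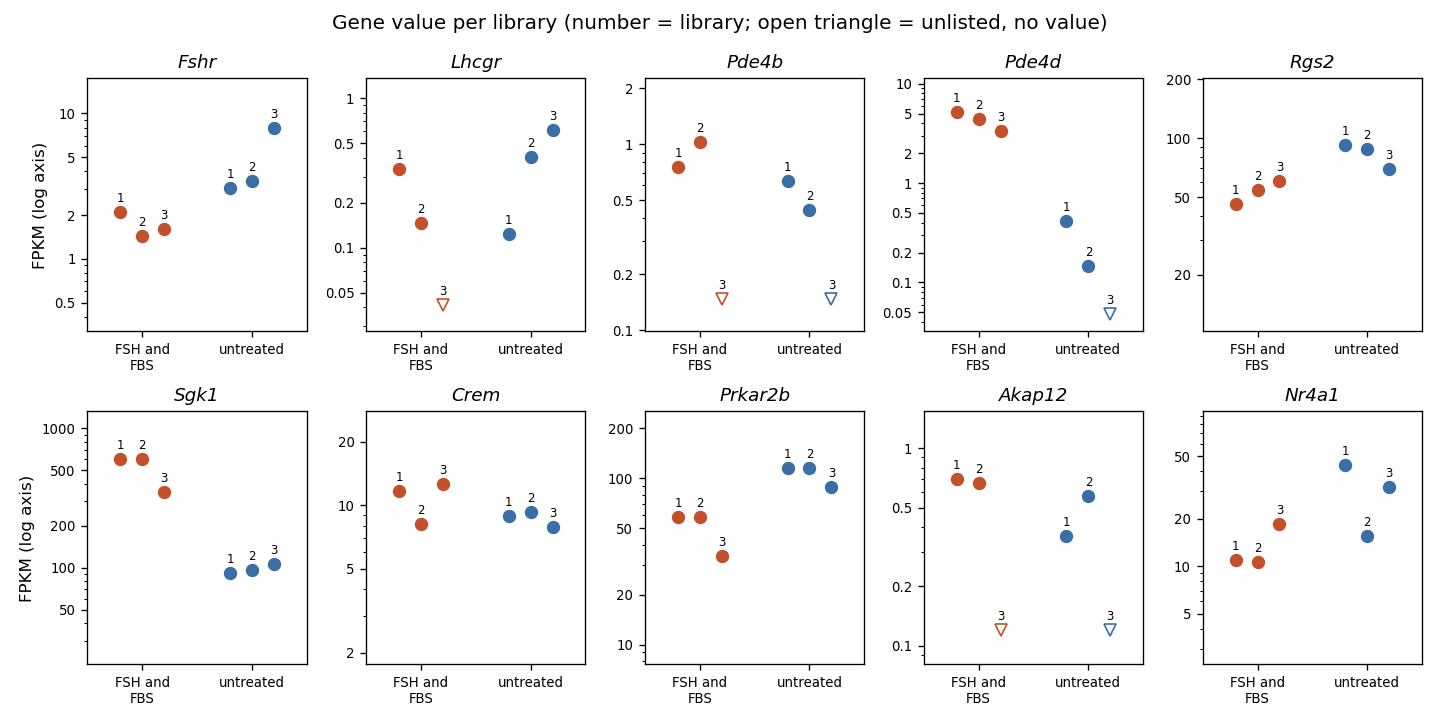
FPKM of each of the 10 genes in each library on a log axis, with a separate scale per gene, FSH and FBS at the left and untreated at the right. Each point is a library with its number, and an open triangle marks a library in which the gene was unlisted. Sgk1 sits at 351.8 to 601.0 FPKM after FSH and FBS, against 91.3 to 106.2 FPKM in untreated cells.

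**Figure D2:**
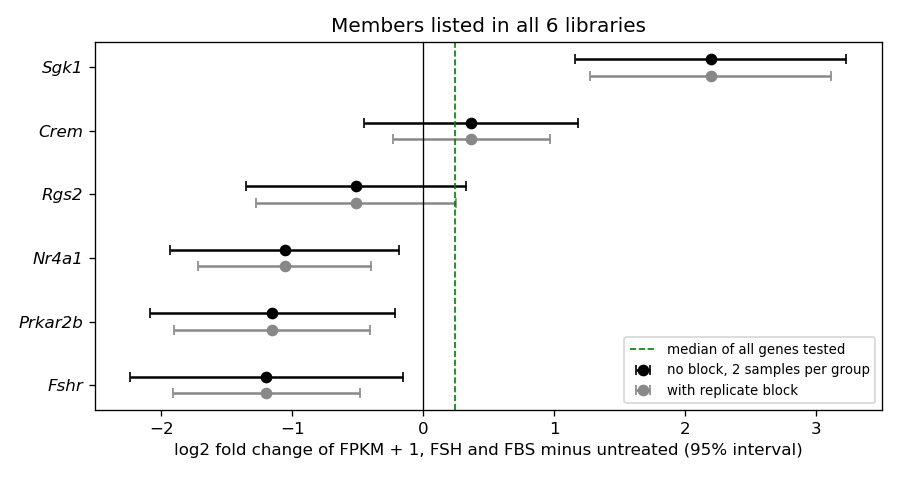
Log2 fold change of FPKM + 1, FSH and FBS minus untreated, with 95% intervals, for the 6 genes listed in all libraries. Black points are from the fit without a block and grey points from the fit with the replicate block; the dashed line is the median of all genes tested, 0.24. Only the Sgk1 intervals lie wholly above that line.

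Of the receptors, Fshr encodes the FSH receptor itself. It stood at 2.09, 1.42 and 1.61 FPKM after FSH and FBS, against 3.08, 3.40 and 7.92 FPKM in untreated cells. All 3 FSH and FBS libraries lay below all 3 untreated ones, and untreated library 3 was far above the other two. The means were 1.68 ± 0.11 FPKM after FSH and FBS and 5.58 ± 3.31 FPKM in untreated cells (SD, n = 2 each). The log2 fold change was -1.20 (SE 0.45, limma adjusted p = 0.25), and the adjusted p was 0.026 with the replicate block. Over the alternatives with at least 2 samples in each group the adjusted p was 0.026 to 0.55. The log2 fold change depended on 2 choices. Without untreated library 3 the log2 fold change was -0.66. In FSH and FBS library 3 a single Fshr event stood at 4.58 FPKM, above the 1.61 FPKM of the exon sums, so that taking the largest event as a floor gave 2.09, 1.42 and 4.58 FPKM after FSH and FBS against 3.08, 3.40 and 7.92 FPKM in untreated cells. The groups then overlapped, and the log2 fold change was -0.65 (SE 0.50, limma adjusted p = 0.55).

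Fshr RNA was listed with and without a 72-base exon, the cassette exon nearest the first exon. Forms with the exon stood at 1.68, 0.63 and 0.60 FPKM after FSH and FBS, against 0.357 and 1.52 FPKM in untreated libraries 1 and 2, and were unlisted in untreated library 3. Forms that skip it stood at 0.41 and 0.37 FPKM in libraries 1 and 2 of FSH and FBS, were unlisted in library 3, and stood at 1.936, 1.242 and 4.501 FPKM in untreated cells. The included share was thus 80.4%, 63.0% and 100% after FSH and FBS and 15.6%, 55.1% and 0% in untreated cells, with an unlisted form counted as 0. The groups did not overlap, at levels of a few FPKM and with no test. The shares rest on these 2 forms alone. In FSH and FBS library 3 the forms held 0.604 FPKM beside a first-exon sum of 1.61 FPKM, and the single event of 4.58 FPKM was in neither. In untreated library 3 they held 4.501 FPKM beside a sum of 7.92 FPKM. The shares of 100% and 0% thus cover only part of the listed signal.

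Lhcgr, the receptor for luteinizing hormone, was listed at 0.337 and 0.148 FPKM in libraries 1 and 2 of FSH and FBS, was unlisted in library 3, and stood at 0.125, 0.406 and 0.617 FPKM in untreated cells. The listed values overlapped, and Lhcgr was not tested. Wherever it was listed it was lower than Fshr. FPKM is scaled to length, but each gene value is the larger of 2 exon sums, which lay far apart for some genes. Levels of different genes can therefore be compared only roughly. The tested genes whose centred log2(FPKM + 1) values over the 6 libraries lay closest to those of Fshr were Etfbkmt, Fabp3 and Rps6, at Euclidean distances of 0.354, 0.509 and 0.532. Etfbkmt stood at 3.12, 3.29 and 3.23 FPKM after FSH and FBS, against 5.57, 5.48 and 11.2 FPKM in untreated cells. With 6 libraries this likeness is a description of 2 groups and 1 high library.

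Among the genes that degrade or spend the signal, Pde4d encodes a phosphodiesterase that hydrolyses cyclic AMP. It stood at 5.12, 4.44 and 3.30 FPKM after FSH and FBS, at 0.413 and 0.145 FPKM in untreated libraries 1 and 2, and was unlisted in untreated library 3. Every FSH and FBS value lay above every listed untreated one. Because 1 library did not list it, Pde4d was not among the genes tested. With unlisted genes taken as 0 its log2 fold change was 2.14 (SE 0.54, limma adjusted p = 0.13), a setting under which 1.83% of 10129 genes passed, 1.18% higher and 0.642% lower. Its listed first exons overlapped as 1 group and began 1247261 bases downstream of the RefSeq start in the promoter table. No last exon of Pde4d was listed in any library, so its values rest on that first-exon group alone. Pde4b, a related phosphodiesterase, stood at 0.754 and 1.03 FPKM in libraries 1 and 2 of FSH and FBS and at 0.632 and 0.442 FPKM in untreated libraries 1 and 2, and it was unlisted in both libraries numbered 3. Its listed first exon began 35 bases downstream of a RefSeq start and 148540 bases downstream of the first RefSeq start in the promoter table.

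Rgs2 encodes a protein that speeds the return of G proteins, mainly of the Gq class, to their inactive state and can also act on adenylyl cyclase. It stood at 46.3, 54.2 and 60.7 FPKM after FSH and FBS, against 91.9, 88.3 and 69.9 FPKM in untreated cells. The groups did not overlap, though the nearest libraries were the pair numbered 3. The means were 55.5 ± 7.38 FPKM after FSH and FBS and 80.0 ± 14.3 FPKM in untreated cells (SD, n = 2 each). The log2 fold change of -0.51 (SE 0.36, limma adjusted p = 0.53) did not pass here. Nor did it under any alternative with at least 2 samples in each group. A 112-base intron of Rgs2 was retained in 0.64%, 1.68% and 1.47% of the listed signal after FSH and FBS and in 0.29%, 0.27% and 0.41% in untreated cells. The retained form reached 0.294, 0.913 and 0.892 FPKM after FSH and FBS, against 0.268, 0.237 and 0.288 FPKM in untreated cells, so 1 FSH and FBS library lay close to the untreated ones.

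Sgk1, a serum- and hormone-induced kinase related to AKT, was the most abundant of the 10 genes in each FSH and FBS library. It stood at 601.0, 598.9 and 351.8 FPKM after FSH and FBS, against 91.3, 95.8 and 106.2 FPKM in untreated cells. Every FSH and FBS library lay far above every untreated one. The means were 475.9 ± 175.5 FPKM after FSH and FBS and 99.9 ± 8.94 FPKM in untreated cells (SD, n = 2 each). The log2 fold change was 2.19 (SE 0.45), and the limma adjusted p of 0.051 missed the threshold narrowly. It was 0.0033 with the replicate block. Over 19 alternatives the log2 fold change was 1.89 to 2.58 and the adjusted p 0.00011 to 0.38, under 0.05 in 7 of them. The largest p was without untreated library 3, a setting under which 0.814% of all genes passed.

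The signal of Sgk1 came from 4 first exons, each beginning exactly at a RefSeq start. The third, which begins 15218 bases below the first, stood at 242.2, 242.5 and 288.6 FPKM after FSH and FBS, against 47.1, 48.0 and 59.0 FPKM in untreated cells, with the groups far apart. The fourth, 776 bases further on, stood at 297.5, 288.6 and 52.1 FPKM after FSH and FBS, against 42.0, 45.2 and 43.5 FPKM in untreated cells, so that FSH and FBS library 3 lay near the untreated ones. The second stood at 58.4, 66.3 and 10.6 FPKM after FSH and FBS, against 2.09, 2.63 and 3.63 FPKM in untreated cells. The first was listed at 2.86, 1.40 and 0.379 FPKM after FSH and FBS, against 0.008 FPKM in untreated library 2, and was unlisted in the other untreated ones. Each first exon was thus higher in every FSH and FBS library than in every untreated one, but their proportions were not shared: the third held 40.3%, 40.5% and 82.0% of the sum after FSH and FBS and 51.6%, 50.1% and 55.6% in untreated cells.

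**Figure D3:**
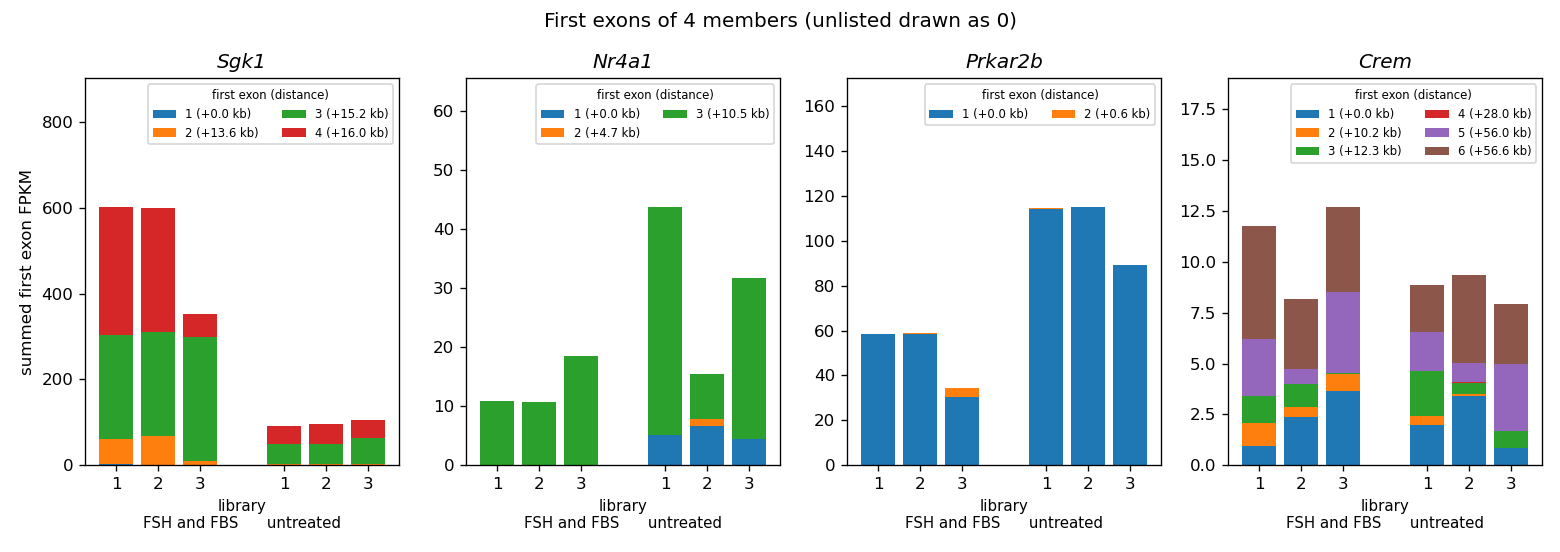
Summed first-exon FPKM of Sgk1, Nr4a1, Prkar2b and Crem per library, stacked by first exon and numbered from the most upstream, with the distance from it in kb. Libraries of FSH and FBS are the left 3 bars of each panel and untreated libraries the right 3, and an unlisted exon is drawn as 0. The upstream Nr4a1 exon, at 4.46 to 6.71 FPKM, appears in the untreated bars alone.

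Prkar2b encodes the RII-beta regulatory subunit, which holds PKA inactive and docks it to anchoring proteins. It stood at 58.6, 58.9 and 34.3 FPKM after FSH and FBS, against 114.7, 114.9 and 89.2 FPKM in untreated cells, and the groups did not overlap. The means were 46.5 ± 17.3 FPKM after FSH and FBS and 102.0 ± 18.1 FPKM in untreated cells (SD, n = 2 each). The log2 fold change was -1.15 (SE 0.41, limma adjusted p = 0.22), with an adjusted p of 0.038 under the replicate block. Over the alternatives with at least 2 samples in each group the adjusted p was 0.014 to 0.29. Its last-exon sums were far smaller than its first-exon sums, at 8.62, 5.61 and 9.45 FPKM after FSH and FBS, against 13.8, 22.6 and 21.5 FPKM in untreated cells. They kept the same order of groups, with a log2 fold change of -1.18. The upstream of its 2 first exons held 88.9% to 100% of the sum in FSH and FBS libraries and 99.4% to 100% in untreated ones. Akap12, an anchoring protein that ties PKA to the cell cortex, stood at 0.700 and 0.666 FPKM in libraries 1 and 2 of FSH and FBS and at 0.361 and 0.577 FPKM in untreated libraries 1 and 2, and was unlisted in both libraries numbered 3.

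Of the transcription factors, Crem yields activators and, from an internal promoter, the early repressor ICER. It stood at 11.8, 8.17 and 12.7 FPKM after FSH and FBS, against 8.86, 9.33 and 7.94 FPKM in untreated cells. The libraries overlapped, and the log2 fold change of 0.37 (SE 0.35, 95% interval -0.45 to 1.18, limma adjusted p = 0.65) was close to the median of all genes. It was -0.095 with last-exon sums. Crem had 6 first exons. The most downstream, 56616 bases below the first, held 47.0%, 41.9% and 32.7% of the sum after FSH and FBS and 26.3%, 46.4% and 37.3% in untreated cells, and the groups overlapped. The files do not say which first exon belongs to ICER. The second first exon stood at 1.16, 0.484 and 0.811 FPKM after FSH and FBS, against 0.486 and 0.113 FPKM in untreated libraries 1 and 2, unlisted in library 3, so that the groups met at 0.484 and 0.486 FPKM.

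Nr4a1 encodes an orphan nuclear receptor and is a classical early gene of cyclic AMP. It stood at 10.9, 10.7 and 18.5 FPKM after FSH and FBS, against 43.6, 15.4 and 31.7 FPKM in untreated cells. Without rescaling, FSH and FBS library 3, which had the highest summed FPKM, lay above untreated library 2, so the libraries overlapped. The untreated libraries 1 and 2, alike for most genes, differed here. The means were 14.6 ± 5.45 FPKM after FSH and FBS and 30.6 ± 1.52 FPKM in untreated cells (SD, n = 2 each). The log2 fold change was -1.06 (SE 0.38, limma adjusted p = 0.23), with an adjusted p of 0.031 under the replicate block. Over the alternatives with at least 2 samples in each group the adjusted p was 0.031 to 0.56. Without untreated library 1 the log2 fold change was -0.61. An upstream first exon, 10487 bases before the main one, stood at 5.13, 6.71 and 4.46 FPKM in untreated cells and was unlisted in all 3 FSH and FBS libraries. It held 11.8%, 43.5% and 14.1% of the untreated first-exon sums. The main first exon alone stood at 10.9, 10.7 and 18.5 FPKM after FSH and FBS, against 38.5, 7.68 and 27.2 FPKM in untreated cells.

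Sgk1 led the order of the levels after FSH and FBS, at 475.9 ± 175.5 FPKM (SD, n = 2). There Rgs2 at 55.5 ± 7.38 and Prkar2b at 46.5 ± 17.3 FPKM followed and did not differ beyond their spread, nor did Nr4a1 at 14.6 ± 5.45 and Crem at 11.3 ± 1.92 FPKM (SD, n = 2). Pde4d at 4.04 ± 1.05 FPKM came before Fshr at 1.68 ± 0.11 FPKM. In untreated cells Prkar2b at 102.0 ± 18.1 FPKM and Sgk1 at 99.9 ± 8.94 FPKM did not differ beyond their spread, nor did Rgs2 at 80.0 ± 14.3 FPKM from either (SD, n = 2). Within libraries, however, Prkar2b was above Rgs2 in all 3, at 114.7 against 91.9, 114.9 against 88.3 and 89.2 against 69.9 FPKM. The order of Sgk1 against each of them changed between libraries. Nr4a1 followed at 30.6 ± 1.52 FPKM, and Crem at 8.52 ± 0.82 and Fshr at 5.58 ± 3.31 FPKM, lower still, did not differ beyond their spread (SD, n = 2). Crem was above Fshr in each untreated library, at 8.86 against 3.08, 9.33 against 3.40 and, barely, 7.94 against 7.92 FPKM. Lhcgr, Pde4b and Akap12 were at or below 1.03 FPKM wherever they were listed. The order of levels rests on taking the larger exon sum. By last-exon sums Prkar2b stood at 13.8, 22.6 and 21.5 FPKM in untreated cells, far below Rgs2 at 91.9, 88.3 and 69.9 FPKM. Sgk1 and Pde4d had no listed last exon.

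The rest of the pathway was read from 10 lists with 85 tested genes. Of these, 4 were higher and 1 lower after FSH and FBS in the limma test, and 16 and 5 with the replicate block, against 1.68% higher and 0.687% lower, or 11.5% and 4.51%, of all genes. Gem, an early gene encoding a small GTPase that restrains calcium channels, fell to 6.79, 5.83 and 3.58 FPKM after FSH and FBS, against 82.4, 80.0 and 47.0 FPKM in untreated cells (log2 fold change -3.44, SE 0.42, limma adjusted p = 0.0088). Ezr, which encodes the membrane linker and PKA anchor ezrin, rose to 90.3, 89.3 and 94.8 FPKM, against 15.3, 17.5 and 9.63 FPKM in untreated cells (log2 fold change 2.78, SE 0.38, limma adjusted p = 0.011). Ndrg1, whose product is a substrate of SGK1, stood at 23.0, 36.5 and 32.7 FPKM after FSH and FBS, against 6.25, 6.46 and 6.27 FPKM in untreated cells, and rose by 2.14 on the log2 scale (SE 0.34, limma adjusted p = 0.020). Gem and Ezr kept their calls in every alternative with at least 2 samples in each group. Ndrg1 lost its call with first-exon sums (limma adjusted p = 0.13), equal sums (0.084) and median of ratios (0.056). Without untreated library 3 the log2 fold change was 2.42 for Ezr and 2.13 for Ndrg1.

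**Figure D4:**
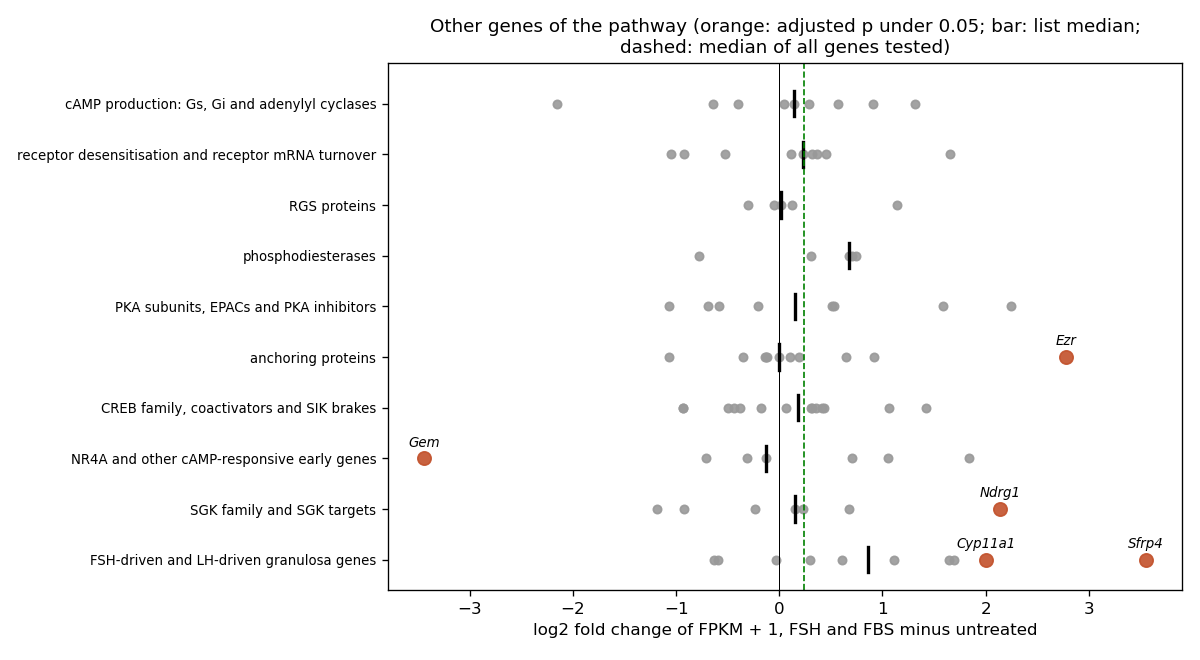
Log2 fold change of FPKM + 1, FSH and FBS minus untreated, for the 85 tested genes of 10 lists, 1 point per gene, with a short bar at each list's median. Orange points passed at an adjusted p of 0.05: Ezr, Ndrg1, Sfrp4 and Cyp11a1 to the right and Gem to the left of the dashed median of all genes at 0.24.

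By role, the list medians lay on both sides of that of all genes. Of 9 genes of cyclic AMP production none passed, 3 had an unadjusted p under 0.05, and the median was 0.14. The inhibitory G protein gene Gnai1 stood at 2.87, 3.06 and 2.27 FPKM after FSH and FBS, against 25.9, 22.1 and 9.27 FPKM in untreated cells, with no overlap (log2 fold change -2.15, SE 0.48, limma adjusted p = 0.065, and 0.00025 with the replicate block). Gnao1, of the same class, had a log2 fold change of 1.32. Of 9 genes of receptor desensitisation and receptor RNA turnover none passed and 1 had an unadjusted p under 0.05, with a median of 0.23. That gene was Mvk, a mevalonate pathway enzyme that in the rat also binds luteinizing hormone receptor RNA, at 19.5, 19.2 and 19.9 FPKM after FSH and FBS, against 3.68, 4.06 and 7.83 FPKM in untreated cells (limma adjusted p = 0.087, and 0.0016 with the replicate block). Arrb1, a beta-arrestin gene, had a log2 fold change of -1.05 (adjusted p = 0.35, and 0.025 with the block).

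Of 5 other RGS genes none passed and 1 had an unadjusted p under 0.05, with a median of 0.02. It was Rgs19, with a log2 fold change of 1.14, and Rgs3 followed at -0.31 (limma adjusted p = 0.27 and 0.74, and 0.038 and 0.55 with the block). Of 8 genes of PKA subunits, exchange factors and inhibitors none passed and 3 had an unadjusted p under 0.05, with a median of 0.15. One of these was Popdc2, whose ID carried signal of which 0.14% lay inside the RefSeq span of that gene. Without it 2 of 7 had an unadjusted p under 0.05, the median was -0.20, and the lists together had 15 genes higher and 5 lower with the replicate block. Prkar2a, the RII-alpha subunit gene, stood at 6.999, 8.478 and 6.203 FPKM after FSH and FBS, against 3.40, 2.79 and 0.702 FPKM in untreated cells, with a fold change opposite in sign to that of Prkar2b (log2 fold change 1.59, SE 0.48, limma adjusted p = 0.16, and 0.0038 with the block). Of 11 anchoring protein genes Ezr alone passed, 2 had an unadjusted p under 0.05, and the median was 0.00. Map2, a microtubule protein that also anchors PKA, was not tested and was named after its values were seen. It stood at 0.635 and 0.429 FPKM in libraries 1 and 2 of FSH and FBS, was unlisted in library 3, and stood at 28.4, 26.5 and 9.84 FPKM in untreated cells (log2 fold change -3.83, limma adjusted p = 0.032 with unlisted genes as 0). Of 14 genes of the CREB family, its coactivators and the SIK kinases none passed and 3 had an unadjusted p under 0.05, with a median of 0.19. Creb3l1 and Creb3, membrane-bound relatives of CREB, had log2 fold changes of 1.42 and 1.06 (limma adjusted p = 0.087 and 0.26, and 0.0045 and 0.051 with the block).

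Of 7 early genes that answer to cyclic AMP, Gem alone passed, 3 had an unadjusted p under 0.05, and the median was -0.13. Dusp1, a phosphatase of MAP kinases named after its values were seen, stood at 14.2, 13.4 and 14.5 FPKM after FSH and FBS, against 4.71, 3.61 and 2.44 FPKM in untreated cells, opposite in sign to Gem (log2 fold change 1.84, limma adjusted p = 0.052, and 0.00055 with the replicate block). Of 7 genes of the SGK family and its targets Ndrg1 alone passed and 2 had an unadjusted p under 0.05, with a median of 0.15. Of 10 genes driven by FSH or luteinizing hormone in granulosa cells 2 were higher and none lower, 4 had an unadjusted p under 0.05, and the median was 0.86. Sfrp4, a secreted Wnt modulator, rose to 193.6, 188.8 and 122.1 FPKM after FSH and FBS, against 9.22, 9.07 and 15.9 FPKM in untreated cells (log2 fold change 3.55, SE 0.42, limma adjusted p = 0.0085). It passed in every alternative with at least 2 samples in each group. Cyp11a1, of cholesterol side-chain cleavage, had a log2 fold change of 2.01 and a limma adjusted p of 0.046. Over the same alternatives Cyp11a1 had an adjusted p of 0.0020 to 0.15 and passed in only some. Of its exon signal 86.1% lay inside its RefSeq span.

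Of 5 other tested genes with a phosphodiesterase (Pde) symbol none passed and none had an unadjusted p under 0.05, and the median was 0.68. Pde4a and Pde8a, which hydrolyse cyclic AMP, had log2 fold changes of 0.70 and 0.74 (limma adjusted p = 0.39 and 0.40). Pde4a stood at 2.05, 1.97 and 1.93 FPKM after FSH and FBS, against 0.885, 0.663 and 0.871 FPKM in untreated cells, with no overlap. Pde7b and Pde1b were named after their values were seen. Pde7b, also specific for cyclic AMP, stood at 0.670 and 0.783 FPKM in libraries 1 and 2 of FSH and FBS, was unlisted in library 3, and stood at 13.9, 13.4 and 8.63 FPKM in untreated cells. With unlisted genes as 0 its log2 fold change was -3.18 (limma adjusted p = 0.037). Pde1b, activated by calcium and calmodulin, stood at 0.446 and 1.31 FPKM, unlisted in library 3, after FSH and FBS and at 3.51, 3.48 and 4.05 FPKM in untreated cells (adjusted p = 0.21 on that setting). The listed Pde4d and Pde7b values thus ran in opposite directions between the groups.

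**Figure D5:**
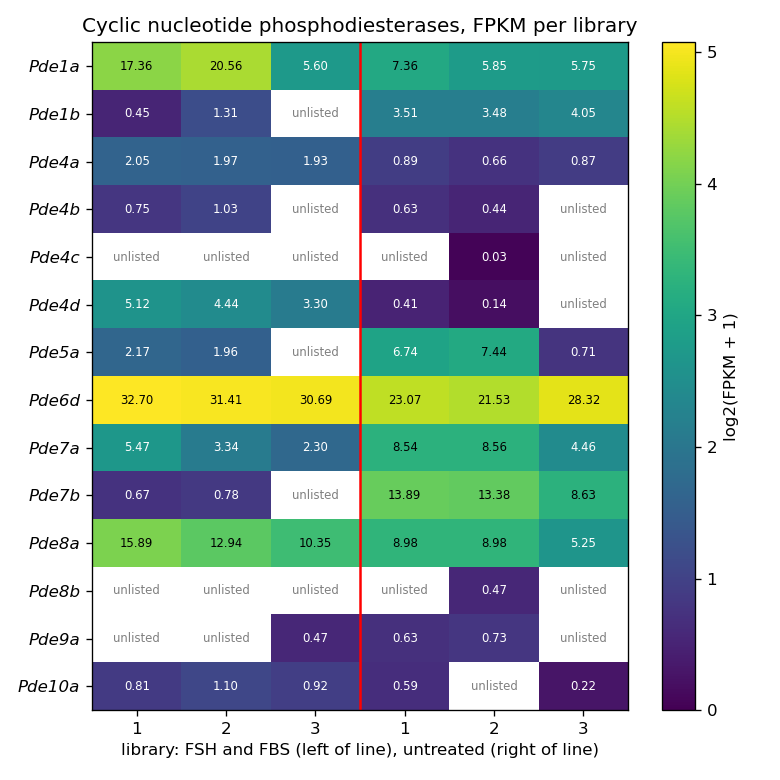
FPKM of the listed genes with a phosphodiesterase (Pde) symbol, Pde6d among them, in each library. Values are printed in each cell and coloured by log2(FPKM + 1), with FSH and FBS left of the red line and untreated right of it. White cells are unlisted. Pde4d runs from 3.30 to 5.12 FPKM at the left and is at most 0.413 FPKM at the right, and Pde7b is at most 0.783 FPKM at the left and 8.63 to 13.9 FPKM at the right.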

How the data were processed

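The deposited tables give an FPKM value for every first exon, last exon and splicing event of assembled transcripts, per the file headers. HISAT2 2.0.1 was the aligner named in the submitters' processing notes. Assembler, filters and genome build: not given in the sources used here. No counts are listed, and the small-RNA libraries were not analysed here. Events were summed per Ensembl gene on the strand with most signal, and 13281 of 13318 gene IDs matched a symbol. First exons that overlapped by at least 1 base were grouped as 1, and its position is the most upstream edge of the group. All first- and last-exon signal of the 10 members lay inside their RefSeq spans, as did the larger share for 97.40% of 8820 genes checked.

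Libraries 1 and 2 of a group were averaged. FSH and FBS was compared with untreated by two-sided limma (version 3.58.1, R 4.3.3, trend on mean level) on log2(FPKM + 1). The 9022 genes tested had a value in every one of the 6 libraries and averaged 1 FPKM or more, with Benjamini-Hochberg adjustment over all of them and a threshold of 0.05; fold changes on this scale understate those of low genes. The fit was also run on simulated data with a common spread for all genes and independent samples. Real libraries differ from that setting, so the run cannot show how the fit performs on them. Same-numbered libraries of the 2 groups deviated together (r = 0.32, 0.31 and 0.51 across genes), so the fit with the replicate number as a block is given where it changes a call; library 1 of one group correlated as well with library 2 of the other (r = 0.33 and 0.31), and with 4 samples the block leaves 1 residual degree of freedom per gene before moderation across genes. The alternatives were other pseudocounts, filters, exon sums, scalings, the block, 6 separate libraries and leaving out each library. Leaving out library 3 of a group left 1 sample there, and from those fits only effect sizes are given. Members and lists were chosen with earlier results of these data known. From each list, the genes that passed were named, or else the 2 with the smallest p, and the 3 genes most like Fshr.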

Additional observations from a re-analysis of the deposited data

How the results depend on the processing

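The 6 tested members kept their direction under every setting except Crem, at -0.095 with last-exon sums (0.37 in the fit reported). Sgk1 passed at 2.19 with a mean of at least 5 FPKM and with the largest single event allowed as a gene value (a setting chosen after seeing the data), and at 2.35 with 6 separate libraries, with or without the replicate block. Under the replicate block Sgk1 (2.19), Fshr (-1.20), Prkar2b (-1.15) and Nr4a1 (-1.06) passed; with 6 separate libraries, with or without the block, Prkar2b (-1.09) did. Leaving out 1 library gave 2.18 to 2.58 for Sgk1, which passed without FSH and FBS library 1. Members called were 1 higher in each setting named for Sgk1 with at least 2 samples per group. They were 3 lower under the block and 1 lower with 6 libraries with or without it. Leaving out library 1 or 2 of a group gave 0 to 1 higher and 0 lower. All genes called were 166 higher and 61 lower of 6923 with the 5 FPKM filter, and 221 and 97 of 9153 with the largest event. They were 152 and 60 of 9031 without FSH and FBS library 1, and 1516 and 584 of 9022 with 6 libraries and the block.

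Genes called, 152 higher and 62 lower, were 42 and 21 with first-exon sums, 59 higher with equal sums, 49 and 41 by median of ratios, 94 higher by quantiles, 973 and 350 with 6 libraries, 1040 and 407 with the replicate block and 1516 and 584 with both, 97 lower with the largest event, and 42 to 253 higher and 33 to 131 lower on leaving out 1 library, the lowest without untreated library 3 and the highest without FSH and FBS library 3. The causes were not tested. Equal sums, median of ratios and quantiles moved the median of all genes from 0.24 to -0.024, 0.0037 and 0.0060. Pathway-list calls, 4 higher and 1 lower, were 2 higher with first-exon sums, equal sums or median of ratios. They were 13 and 3 with 6 libraries, 16 and 5 with the block and 21 and 9 with both. They were 3 lower with unlisted genes as 0, and 2 lower with last-exon sums or the largest event. Leaving out library 1 or 2 of a group gave 3 to 4 higher and 1 lower. Against last-exon sums the share of the main first exon differed by 74.4 points for Crem and 52.2 for Prkar2b, as last-exon sums were below first-exon sums for both genes in every library; for Nr4a1 the difference of 22.6 points was 22.6 to 31.0 on leaving out library 3 of either group. Sgk1, with no listed last exon in any library, and Fshr, with one only in untreated library 2, had no such value. The depth is unknown, so no counting error can be given for low values such as those of Fshr, Lhcgr, Pde4b, Akap12 and untreated Pde4d.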
